A study of Mus musculus with 13 samples.

Results

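The CTCF peaks of limbs homozygous for the del(8-13)d11lac or del(8-13)rXII allele were compared with each other. By their names both alleles remove the genes from Hoxd8 to Hoxd13 of the HoxD cluster on mouse chromosome 2. All peaks of either list were taken, with rows of the same region merged, and a peak was called shared when it overlapped a peak of the other list by at least 1 bp. The del(8-13)d11lac list held 61200 peaks and the del(8-13)rXII list 36116, and together they formed 63125 entries, counting each shared region as a del(8-13)d11lac peak. These are 2 of the 7 CTCF libraries of a series of 13 samples, whose 7 CTCF lists hold 368571 peaks.

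Both libraries came from B6CBAF1 embryos at E12.5, from crosses of heterozygous mice, and used the same anti-CTCF antibody and 50 bp single-end reads. The del(8-13)d11lac library was made by standard ChIP-seq from whole forelimbs and hindlimbs. The del(8-13)rXII library was made by ChIPmentation, in which the Tn5 transposase inserts sequencing adapters while the chromatin is held on the beads, from the forelimbs of 4 pooled embryos, with 14 PCR cycles. By its name d11lac carries a lac reporter, while the labels do not say what rXII stands for. Wild-type CTCF lists came from whole limbs (B6CBAF1) and from distal and proximal forelimb (CD1), and wild-type RAD21 from whole limbs (B6CBAF1). RAD21 of del(8-13)rXII came from whole forelimbs and hindlimbs, and CTCF lists of the del(1-13)d9lac allele and the del(attP-Rel5)d9lac allele came from the same tissue. Every group had 1 library. Library, assay, tissue and allele therefore cannot be told apart, and no difference here has a replicate check. Peak lists hold no expression values, so the labelled tissue could not be checked against marker genes. Shares carry Wilson 95% intervals, which reflect the counting error alone.

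CTCF binds DNA through an array of zinc fingers, at a motif that has a direction. Cohesin, the ring complex that holds RAD21, extrudes chromatin loops and is stopped at CTCF sites in an orientation-dependent way. The HoxD cluster is a row of homeobox genes between 2 regulatory landscapes, of which the telomeric one acts on the early, proximal limb and the centromeric one on the digits. CTCF sites inside the cluster lie where these landscapes meet.

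The CTCF motifs at HoxD are shown first, since agreement between the alleles was read at these sites. Each line gives the best motif match within 50 bp of the summit, read 5′ to 3′ along its own strand from GRCm38 (mm10), with the 19 bp motif in capitals. The coordinates are those of the capitals. The first group had a peak in neither allele. A further such site, 155 bp before the start of Hoxd10, is left out because its best match scored 3.54 bits, below the threshold of 7.66.

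Hoxd13 to Hoxd12, chr2:74673174-74673192, minus strand: ccaaaCGCCCAGGAGATGGCGAGCgtgct
Hoxd11, chr2:74686477-74686495, plus strand: ttctaCAGCCACACGAGGGCGCGCtcatg
Hoxd10, chr2:74694225-74694243, minus strand: cttacTGATCTCTAGGCGGCGCTCgcggg
Hoxd9 to Hoxd8, chr2:74702392-74702410, plus strand: gcattTGGCCACTAGAGAGCGCTGttgct

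The next matches belong to the sites that kept a peak in both alleles. That between Evx2 and Hoxd13 scored 7.66 bits and fell just below the threshold, which to 3 digits is the same number.

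Evx2, chr2:74655523-74655541, minus strand: tcctgCTGCCGCTAGGGGGCGCCCcgggg
Evx2 to Hoxd13, nearer Hoxd13, chr2:74663743-74663761, minus strand: cgcgcTTGGCGCTAGATGTCCCTGcaagt
Hoxd4, chr2:74715918-74715936, plus strand: agcttTGTCCAGGAGGAGGCGCTGtagga

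The last matches belong to sites on which the lists differed. The first lies between Lnpk and Evx2, and both had a peak in del(8-13)d11lac alone.

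Lnpk to Evx2, chr2:74635620-74635638, plus strand: agaagAAACCAGAAGAGGGTGTTAtacct
Evx2 to Hoxd13, nearer Evx2, chr2:74661997-74662015, minus strand: cgaggAAAACAGATGGGGGCGCCAaatga

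At HoxD the alleles had the same status at 8 of the 9 wild-type whole-limb CTCF sites between the starts of Lnpk and Mtx2. Of these, 3 had a peak in both lists and 5 in neither, and the remaining one had a peak in del(8-13)d11lac alone. The 5 lie between Hoxd13 and Hoxd8, in DNA that both alleles remove by name. Their shared absence follows from the genotype and is no measure of agreement. All 9 were wild-type consensus sites, which also had a peak in both forelimb lists. Over the genome 76.82% of 39477 consensus sites had a peak in both alleles and 1.117% in neither. Counted by the peaks of each list, a different measure, 46.7% of del(8-13)d11lac peaks and 5.33% of del(8-13)rXII peaks had no counterpart genome-wide. The 5 sites without a peak formed an unbroken run of 29.62 kb, chr2:74672984-74702605, from a site before Hoxd12 to one before Hoxd8, across genes that pattern the digits and forearm. In the wild-type list 3 of the 5 were strong, with a −log10 q (the authors' measure of peak strength, which grows with read depth) of 60.4 between Hoxd9 and Hoxd8, 56.82 in Hoxd11 and 54.11 before Hoxd12. The other members of the run were the Hoxd10 coding-exon site (34.4) and the site 155 bp before the start of Hoxd10 (12.41).

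The span without the neighbouring peaks had nearly the same edges in both alleles. It ran over chr2:74663946-74715688 (51.74 kb) in del(8-13)d11lac and chr2:74663839-74715702 (51.86 kb) in del(8-13)rXII. These edges are the nearest called peaks and not the ends of the deletion. The del(8-13)rXII list had 0 peaks inside this span and the del(8-13)d11lac list 1.

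The kept sites had strengths on different scales in the 3 lists. The site between Evx2 and Hoxd13, chr2:74663558-74663930 in wild type, had a −log10 q of 34.73 in wild type, 87.11 in del(8-13)d11lac and 12.89 in del(8-13)rXII. These values stood at percentiles 69.76, 72.71 and 76.6 of their lists. The site in introns of Hoxd4 and Hoxd3, at chr2:74715703-74716372, had 53.38, 124.4 and 12.97, at percentiles 82.69, 82.3 and 76.87. The site in a UTR of Evx2, the homeobox gene beside Hoxd13, had 22.31, 42.26 and 7.564, at percentiles 57.42, 56.61 and 52.8. The lists differ in length, so these percentiles do not measure a change. Shared pairs outside promoters over the genome had a median percentile of 73.19 in del(8-13)d11lac and 53.92 in del(8-13)rXII. Within the Evx2 peak the strongest summit of del(8-13)rXII stood 77 bp from that of del(8-13)d11lac, next to another motif match on the minus strand, shown here because both lists cover it.

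Evx2, beside the del(8-13)rXII summit, chr2:74655592-74655610, minus strand: ctacgCCGCCGCCAGGGGCCGCGCcagcc

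RAD21 of del(8-13)rXII, from a standard ChIP-seq library of this allele, had peaks at both inner edge sites. Its −log10 q was 16.14 at chr2:74663500-74663856 and 52.48 at chr2:74715743-74716138, and no RAD21 peak was called at the Evx2 site. This RAD21 list held 15927 peaks, against 33707 in wild-type whole limbs, so a missing call in it does not measure a loss.

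**Figure D1:**
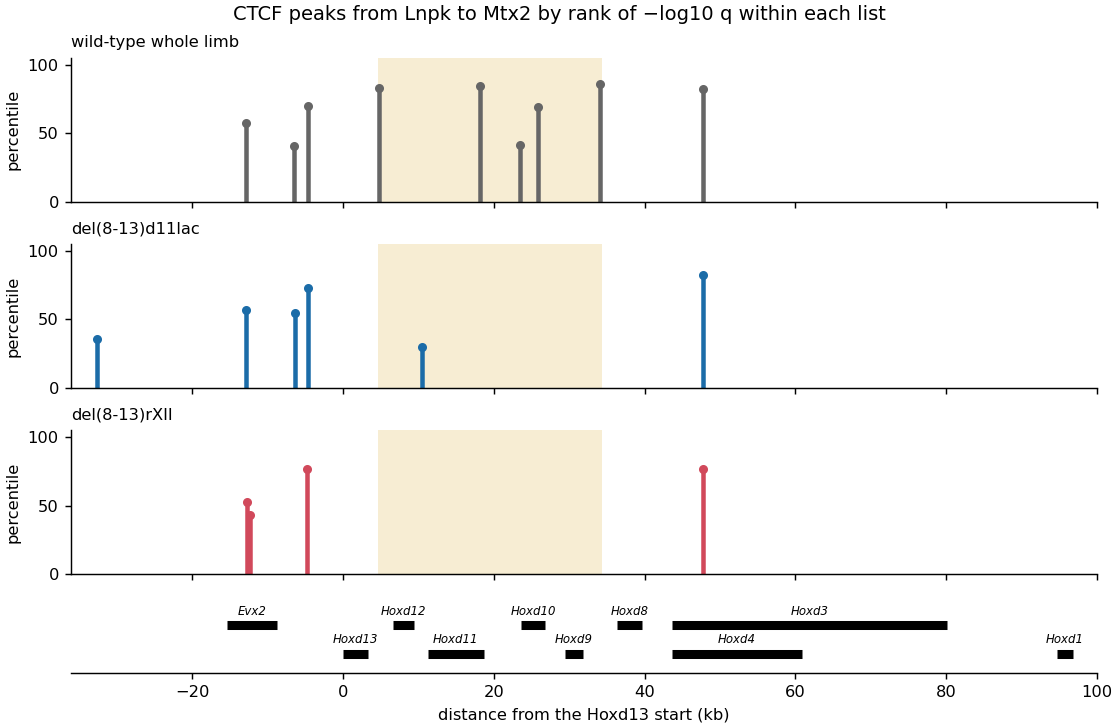
CTCF peaks between Lnpk and Mtx2 in wild-type whole limbs, del(8-13)d11lac and del(8-13)rXII, by distance from the Hoxd13 start in kb (x axis) and percentile of −log10 q within each list (y axis), with genes as bars and the run missing in both alleles shaded. Percentiles of different lists are not on a common scale. The shaded run holds 1 del(8-13)d11lac peak and no del(8-13)rXII peak.

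The lists differed at 4 places between Lnpk and Mtx2, 3 with a peak in del(8-13)d11lac alone and 1 in del(8-13)rXII alone. The strongest was the Evx2-proximal intergenic site, chr2:74661579-74662211 in del(8-13)d11lac, with a −log10 q of 38.22 (percentile 54.39). It had 11.91 in wild-type whole limbs, 27.77 in distal and 40.28 in proximal forelimb and 9.719 in del(1-13)d9lac. The del(attP-Rel5)d9lac list had no peak there, nor at the sites that kept a peak in both alleles. In the del(8-13)d11lac decile that holds it, 66.54% of peaks over the genome had a del(8-13)rXII peak. RAD21 at this place was also called in wild-type limbs (89.65) and not in the shorter RAD21 list of del(8-13)rXII.

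The peak between Lnpk and Evx2, chr2:74635452-74635895, had a −log10 q of 16.15 in del(8-13)d11lac, 19.83 in distal and 14.54 in proximal forelimb and 5.162 in del(1-13)d9lac. The list of del(8-13)rXII, made from forelimbs, had none there, and neither had the wild-type whole-limb list or the del(attP-Rel5)d9lac list. In its decile 19.77% of del(8-13)d11lac peaks were shared.

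The peak inside the run, chr2:74678720-74678965, stood in del(8-13)d11lac alone, with a −log10 q of 12.41 and a fold enrichment of 6.794 (the authors' ratio of signal at the summit to local background). Its summit lay 717 bp before the start of Hoxd11, the gene whose number the reporter's name carries. This place lies in DNA that both alleles remove by name, and what DNA the reporter carries was not tested. None of the 3 wild-type CTCF lists, the d9lac lists or the whole-limb RAD21 lists had a peak there. The best motif match within 50 bp of the summit scored -3.95 bits, below the threshold of 7.66. The 101 bases around the summit, chr2:74678790-74678890 on the plus strand, are shown with the summit base in capitals, since no motif was found in them.

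Hoxd11 upstream: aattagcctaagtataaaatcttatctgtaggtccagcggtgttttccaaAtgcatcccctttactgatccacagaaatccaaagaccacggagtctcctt

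The place with a peak in del(8-13)rXII alone was in a coding exon of Evx2, chr2:74655772-74656176, with a −log10 q of 5.967. It was separated by 13 bp from the end of the del(8-13)d11lac peak at the Evx2 site. A weak wild-type distal forelimb peak (7.093) and the wide proximal forelimb peak also covered it. Its best motif match, on the plus strand, scored 7.35 bits, below the threshold.

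Evx2 coding exon, chr2:74656005-74656023, plus strand: ctggtAGAGCCCCGGGTGGCGGAAgctgc

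Within 1 Mb on each side of the run, 26 of 58 del(8-13)d11lac peaks (44.83%, 32.75 to 57.55) and 26 of 29 del(8-13)rXII peaks (89.66%, 73.61 to 96.42) were shared. The shared part of all 61 peaks of either list was 42.62%, and it was 21.43% after weak peaks (−log10 q below 10) were dropped from both lists and 70.59% in lists of equal length. At the genome-wide rate for peaks of the same strength decile the counts would be 27.1 and 27.6. On the telomeric side all 15 del(8-13)rXII peaks were shared, and on the centromeric side 11 of 14. Over the 26 shared peaks the −log10 q ranked alike in both lists, with a Spearman rho of 0.746, given as a description of sites that share a library each. It ran from 11.5 through a median of 111.5 to 287.8 in del(8-13)d11lac and from 2.107 through 7.304 to 31.76 in del(8-13)rXII.

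The 5 strongest shared peaks on each side, ranked by −log10 q in del(8-13)d11lac, all had a motif match within 50 bp of the del(8-13)d11lac summit. For 3 of these 10 none passed within 50 bp of the del(8-13)rXII summit. On the telomeric side the strongest was chr2:75605597-75606176, in the intergenic stretch before Hnrnpa3, an RNA-binding protein gene, with 287.8 in del(8-13)d11lac and 31.76 in del(8-13)rXII. Next came chr2:74964256-74964832, beyond Mtx2, with 190.0 and 21.69, at percentiles 94.24 and 94.81. The peaks at chr2:75055089-75055612 (170.5 and 7.304), chr2:75590128-75590638 (162.3 and 15.01) and chr2:75152432-75152915 (135.3 and 14.6) completed the first 5. On the centromeric side, chr2:74300210-74300737 had 163.9 and 6.319, and chr2:74066593-74067108 had 162.0 and 17.75. The others were chr2:73745576-73746078 in an intron of Chn1 (146.2 and 11.77), chr2:73965480-73966215 (144.4 and 8.229) and chr2:73925008-73925491 (101.1 and 7.304). The order was not the same in both lists: the peak at 74300210 stood at percentile 90.13 in del(8-13)d11lac and 45.37 in del(8-13)rXII. The matches at the peak nearest beyond Mtx2 (chr2:74964256-74964832) and at the strongest centromeric peak are given as examples of flanking motifs that both alleles had a peak over.

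Beyond Mtx2, shared, minus strand: aggagCCTCCAGCAGGGGGCACCCttttg
Between Atp5g3 and Lnpk, shared, plus strand: aacaaTGACCAGTAGGTGGCGGTCcagcc

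**Figure D2:**
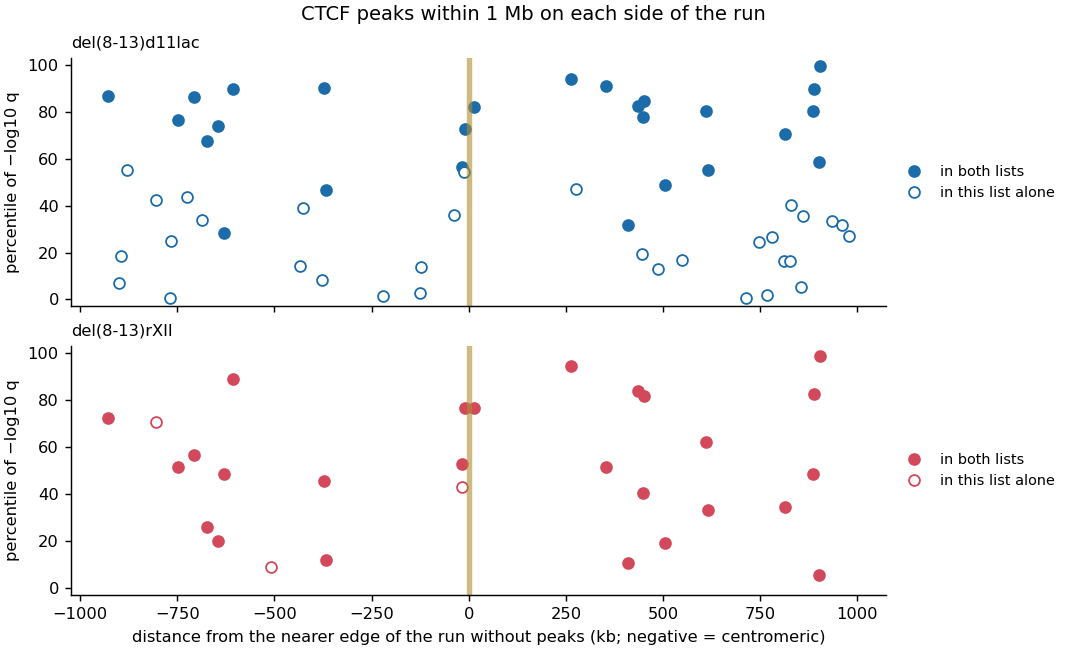
CTCF peaks within 1 Mb on each side of the run, by distance from the nearer edge of the run in kb (x axis) and percentile of −log10 q within the list (y axis), for del(8-13)d11lac (top) and del(8-13)rXII (bottom). Filled points are in both lists and open points in the named list alone: every del(8-13)d11lac peak above percentile 60 is filled.

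The 32 flanking peaks in del(8-13)d11lac alone were weaker, with a median −log10 q of 8.909, and 28 of them overlapped a wild-type CTCF peak. Those above the list's median of 30.88 were chr2:73792140-73792598, between Chn1 and Atf2 (39.55), and the Evx2-proximal site. The del(8-13)rXII list had 3 flanking peaks of its own. One, in an intron of Atf2 at chr2:73867890-73868045 (11.35, above that list's median of 7.069), lay 41 bp from a del(8-13)d11lac peak at chr2:73868087-73868469 (21.83). The Evx2 coding-exon peak was the second such neighbour, and the third, chr2:74163422-74163518 (2.431), overlapped no wild-type peak. So 2 of the 3 were separated from a del(8-13)d11lac peak by less than their own width.

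A group of the unshared flanking peaks had closely related motif sequences. At motif positions 4 to 14, read on the motif strand alone, the most frequent string in the del(8-13)d11lac list was CCAGAAGAGGG, with 8397 peaks against 1584 for the next, CCAGCAGAGGG. It was looked at after the flanking sequences had been seen, and was in 10 of the 58 del(8-13)d11lac flanking peaks. All 10 belonged to the 32 unshared peaks, 8 of them lay in soft-masked repeats, and their −log10 q ran from 1.983 to 23.13. Over the genome 5143 of the 8397 del(8-13)d11lac peaks with the string were unshared. The 58 and 32 count flanking peaks with or without a motif, unlike the genome-wide shares given below. Matches of this kind are shown to make the likeness visible.

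Chn1 intron, chr2:73772504-73772522, minus strand: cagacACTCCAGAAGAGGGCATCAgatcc
Before Atp5g3, chr2:73906317-73906335, plus strand: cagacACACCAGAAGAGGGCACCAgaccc
Lnpk intron, chr2:74550877-74550895, plus strand: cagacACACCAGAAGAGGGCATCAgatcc
Hnrnpa3 intron, chr2:75664089-75664107, plus strand: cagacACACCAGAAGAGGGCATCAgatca

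Over the genome this string was in 25.64% (25.04 to 26.24) of the 20062 motif-bearing peaks of del(8-13)d11lac alone and in 11.11% (10.76 to 11.48) of the 29283 shared ones. It was in 17.02% of the 49345 motif-bearing del(8-13)d11lac peaks and in 11.79% of those in wild-type whole limbs. Of the del(8-13)d11lac matches with it, 82.9% lay in soft-masked repeats, against 14.8% of those without. Rodent B2 short interspersed elements are known to carry CTCF motifs, but the class of repeat was not looked up here. Peaks with the string were weaker (median −log10 q 18.08, against 54.26), and within a strength decile they were shared about as often as others. The difference ran from -0.463 to 3.72 percentage points over the 10 deciles. Wild-type whole-limb RAD21 overlapped 9.97% of peaks with the string and 50.1% of the rest, pooled over all strengths. RAD21 overlap itself rose with strength over the del(8-13)d11lac list. In the weakest decile 388 peaks had RAD21 and 5732 had none, and in the strongest 5716 had RAD21 and 404 had none. Whether peaks with the string have less RAD21 at like strength was not tested.

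Genome-wide, nearly all del(8-13)rXII peaks were del(8-13)d11lac peaks as well. Of 36116 del(8-13)rXII peaks 34191 (94.67%, 94.43 to 94.9) overlapped a del(8-13)d11lac peak, and of 61200 del(8-13)d11lac peaks 32628 (53.31%, 52.92 to 53.71) overlapped a del(8-13)rXII peak. After peaks with a −log10 q below 10 were dropped from both, the second share was 26.78%. Cut to 36116 peaks each by −log10 q, the lists gave 87.52% and 83.37%. The 2 d9lac lists, both ChIP-seq from whole limbs, gave 87.61% for each other at that length. At that length the del(8-13)d11lac peaks were found least in del(8-13)rXII (83.37%) and in 88.69% to 91.66% in the other 5 CTCF lists, with wild-type distal forelimb highest. The del(8-13)rXII peaks were found most in del(8-13)d11lac (87.52%) and in 83.19% to 86.13% in the other 5. The rank of the pair that names the same deletion thus depended on the list it was counted in. Peak widths also differed: the median of the full list was 420 bp in del(8-13)d11lac, 298 bp in del(8-13)rXII and 315 to 367 bp in the other 5. These shares have no replicate spread, and whether assay, tissue, depth or peak width moves them was not tested.

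Sharing rose with strength. From the weakest to the strongest decile of −log10 q, 3.448%, 5.425%, 9.771%, 19.77%, 39.26%, 66.54%, 90.34%, 98.73%, 99.89% and 99.97% of del(8-13)d11lac peaks had a del(8-13)rXII peak. For del(8-13)rXII the share rose from 80.01% in the weakest decile to 99.53% in the ninth, and stood at 98.64% in the strongest. Of the del(8-13)d11lac peaks in the top 3 deciles, 87 were not shared.

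**Figure D3:**
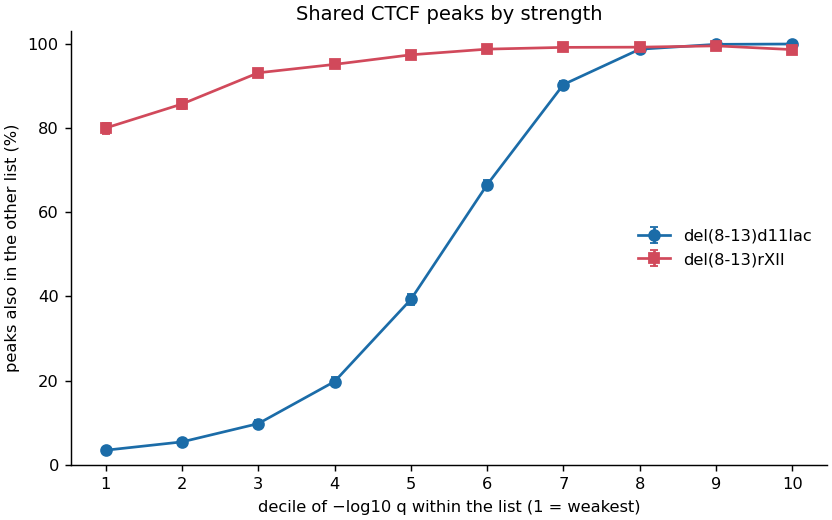
Share of peaks that overlap the other list (y axis, percent, with Wilson 95% intervals) by decile of −log10 q within the list (x axis). The del(8-13)d11lac curve climbs from 3.448% to 99.97%, while every del(8-13)rXII decile is at 80.01% or above.

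By chromosome the share of del(8-13)d11lac peaks found in del(8-13)rXII ran from 48.07% (12) and 48.97% (X) to 55.43% (19). It was 64.29% of the 42 peaks on Y.

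The paired peaks had different shapes. Among 32618 reciprocal best pairs the median width was 507 bp in del(8-13)d11lac and 325 bp in del(8-13)rXII. The median fold enrichment was 14.5 and 6.31, and it was higher in del(8-13)rXII in 2.48% of pairs. Ranks were related, with a Spearman rho of 0.781 for −log10 q and 0.705 for fold enrichment, across sites that share 1 library per list. Several summits were called in 27.1% of the del(8-13)rXII members and 1.83% of the del(8-13)d11lac members. The strongest summits of a pair were a median 41 bp apart.

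The summits of del(8-13)rXII also stood farther from the motif. At 24026 sites where both lists overlapped a wild-type whole-limb peak, the motif was placed from the wild-type summit, with a match past the stricter threshold of 12.2 bits. The match was sought within 50 bp of the wild-type summit, which bounds the wild-type distances but not those of the alleles. The strongest summit was within 25 bp of the motif centre at 88.82% of these sites in del(8-13)d11lac, 86.24% in wild type and 31.73% in del(8-13)rXII. The median distances were 9, 12 and 42 bp. In the 6436 del(8-13)rXII peaks with 2 summits, the summits stood at a median of 73 bp before and 79 bp after the motif centre, and on opposite sides of it in 77.22% (76.18 to 78.23). With 1 summit called, 34.35% were within 25 bp. At the Hoxd4 site 2 summits were called in del(8-13)rXII and 1 in del(8-13)d11lac. Assay, tissue and allele differ together here, so their parts cannot be told apart.

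**Figure D4:**
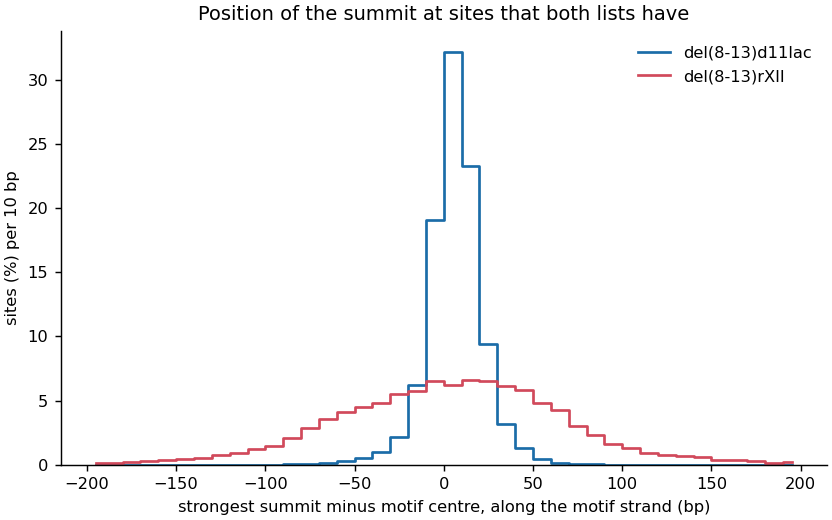
Distance of the strongest summit from the motif centre along the motif strand (x axis, bp, within 200 bp) as percent of 24026 sites per 10 bp (y axis) in del(8-13)d11lac and del(8-13)rXII. The del(8-13)d11lac summits are gathered at the motif and the del(8-13)rXII summits spread to both sides.

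The peaks of only one list differed from each other in kind. The 28572 peaks in del(8-13)d11lac alone had a median −log10 q of 9.906. A CTCF motif lay within 100 bp of the summit in 73.35% (72.84 to 73.86) of them, at a threshold of 9.84 bits that 5% of control windows passed. A wild-type CTCF peak of any of the 3 lists overlapped 85.25% of them, and one of the whole-limb list alone 32.37%. The 1925 peaks in del(8-13)rXII alone were narrow (median 106 bp) and weak (median −log10 q 2.978). Of these, 11.12% (9.789 to 12.6) had a motif and 25.14% (23.26 to 27.13) overlapped a wild-type CTCF peak. The last share depended on how the class was drawn: it was 6.545% with the wild-type whole-limb list alone, and 65.29% when both lists were cut to equal length. Among shared peaks the shares were 89.72% and 99.64% measured in del(8-13)d11lac, and 74.66% and 99.33% measured in del(8-13)rXII. A summit in a soft-masked repeat was found in 17.86% of shared peaks, 35.7% of those in del(8-13)d11lac alone and 52.57% of those in del(8-13)rXII alone. Distance to genes differed less: 8.707%, 9.898% and 7.117% lay within 1 kb of a protein-coding TSS. A del(8-13)d11lac peak lay within 100 bp, without overlap, for 12.16% of the del(8-13)rXII-only peaks.

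RAD21 was most frequent at shared peaks. Wild-type whole-limb RAD21 overlapped 62.45% (61.92 to 62.97) of them, 11.34% (10.97 to 11.71) of the del(8-13)d11lac-only peaks and 18.18% (16.52 to 19.97) of the del(8-13)rXII-only peaks. RAD21 of del(8-13)rXII, from a separate library of that allele, gave 43.02%, 2.583% and 9.247%. Its list was shorter (15927 peaks, against 33707 in wild type), so the 2 sets of shares are not on a common scale. For RAD21 the difference was also seen at like strength. In the weakest del(8-13)d11lac decile 21.65% (17.84 to 26.01) of the 388 peaks with wild-type RAD21 were shared and 2.216% (1.865 to 2.63) of the 5732 without, and in the sixth decile 70.42% and 64.63%. For promoters the difference within a decile stayed between -3.649 and 1.031 points. For the motif it went the other way in the weaker deciles: 2.024% of peaks with a motif within 50 bp and 4.922% of those without were shared in the weakest decile, and 37.89% and 45.74% in the fifth. Peaks in soft-masked repeats were shared slightly more often in the middle deciles, 21.91% against 18.65% in the fourth. The pooled shares of motif and repeat thus include the difference in strength between the classes.

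**Figure D5:**
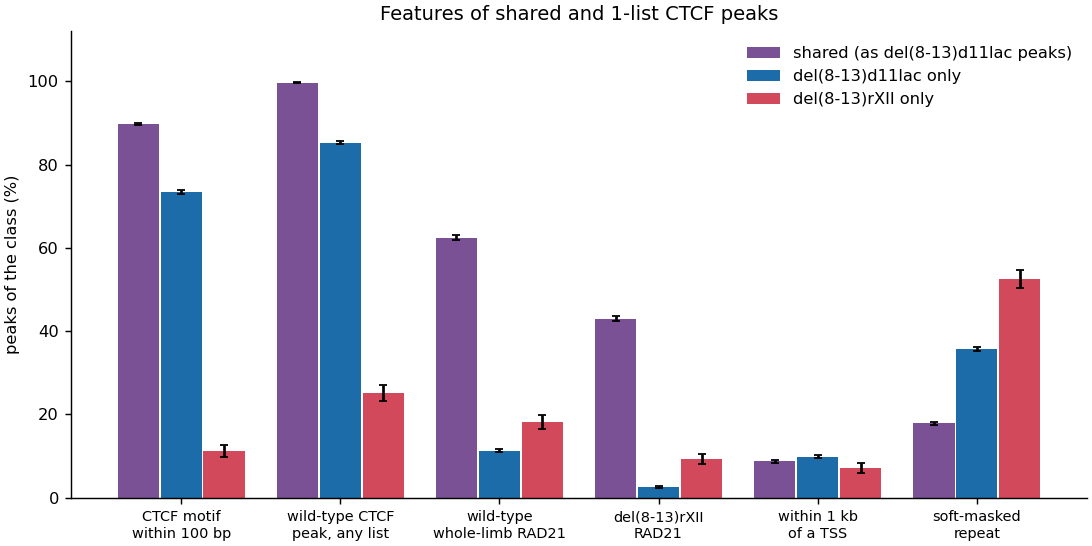
Share of peaks with each feature (y axis, percent, bars with Wilson 95% intervals) among shared peaks, peaks of del(8-13)d11lac alone and peaks of del(8-13)rXII alone. Motif, wild-type CTCF and RAD21 are most frequent in shared peaks, and soft-masked repeats in del(8-13)rXII-only peaks.

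Wild-type consensus sites, which are whole-limb peaks that overlap a peak in both forelimb lists, gave a set of sites not drawn from the list of either allele. Of 39477 such sites, 30327 (76.82%) had a peak in both alleles, 8633 in del(8-13)d11lac alone, 76 in del(8-13)rXII alone and 441 (1.117%) in neither. Of the 517 without a del(8-13)d11lac peak, 85.3% (81.99 to 88.09) also lacked a del(8-13)rXII peak. This was 22.99% over all sites, but most sites missing in both were weak (median −log10 q 3.766), and at the rate of sites in the same strength decile the share would be 64.4%. The 4 strongest sites missing in both were the HoxD sites between Hoxd9 and Hoxd8, in Hoxd11, before Hoxd12 and in Hoxd10. The next were nearest to Tbc1d23 (26.07) and Spata5 (22.04), and the promoter site of Hoxd10 was the fourteenth. These HoxD sites all lie in DNA that both alleles remove by name, so their absence from both lists follows from the genotype. Among the 8336 sites whose −log10 q reached 50, 8314 had a peak in both alleles, 19 in del(8-13)d11lac alone, 0 in del(8-13)rXII alone and 3 in neither. All 3 were among these HoxD sites of the named deletion. Most sites missing in both stood alone (396). Runs of 5 or more were found at HoxD (median −log10 q 54.11) and on chromosome Y (5 sites, 3.754, and 8 sites, 3.454), and 1 run of 3 on chromosome 8 (6.699).

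The strongest peaks in del(8-13)d11lac alone also had CTCF peaks in other lists. Each of the first 10 also had a peak in wild-type whole limbs and both d9lac lists, and 9 had a motif. The strongest, at chr14:43924934-43925469, was nearest to Gm8113 (−log10 q 198.0). Next was a repeat at chr17:4626035-4626728, nearest to Arid1b but 368554 bp from it (195.9), which had no motif. Others lay in introns of Cgn, a tight-junction gene (157.6), Kat2b, a histone acetyltransferase gene (138.7), Tmem72 (124.1) and Adamts3, a procollagen peptidase gene (118.8), and near Cmpk2 (111.8). The remaining ones were near Gm21860 on chromosome Y (158.8 and 125.3) and in a UTR of Mid1 on X (131.0), and these 3 had the same 29 bases at the motif. How reads were placed between such copies is not given in the sources used here. Of the 87 unshared peaks of the top 3 deciles, 34.48% (25.34 to 44.94) had a RAD21 peak in del(8-13)rXII, which is 30 places without a peak in the CTCF list of that allele. Among shared peaks of the same deciles it was 62.88%, and the RAD21 library came from forelimbs and hindlimbs and the CTCF library from forelimbs alone. The motifs shown are those of the strongest unshared peak and of the Mid1 copy.

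Gm8113, chr14:43925182-43925200, plus strand: atgtgCCGCCACTAGATGGTGCTAaacct
Mid1, chrX:169990312-169990330, minus strand: ctctgTCACCACCGGGTGGCGACAgagag

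Among the 10 strongest peaks in del(8-13)rXII alone, none had a motif within 50 bp of the summit and 1, at Syt7, had one within 100 bp. A summit in a soft-masked repeat was found in 8. A wild-type CTCF peak overlapped 9 of them, in the whole-limb list 8, and wild-type whole-limb RAD21 overlapped 9. They were led by a peak at chr12:97061395-97061787, 1197896 bp from Galc (87.83), and included peaks near Gm8797 (66.61), Nxph1 (49.0), Mucl2 (44.89), Fndc1 (36.92) and Gm12689 (36.55). Others lay in introns of Ptprm (43.3), Flt1, a VEGF receptor gene (38.13), and Prkch (34.86). One lay 46 bp from the start of Syt7, a synaptotagmin gene for calcium-triggered exocytosis (35.29). That near Nxph1 was the one without a wild-type CTCF peak. Of the 94 del(8-13)rXII-only peaks in the top 3 deciles, 79.79% (70.57 to 86.66) lay in soft-masked repeats and 70.21% were narrower than 200 bp, against 10.47% and 1.983% of the shared peaks there. Wild-type whole-limb RAD21 overlapped 77.66% (68.25 to 84.9) of the 94, against 87.51% of the shared peaks there.

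The strongest shared peaks by mean rank were nearest to Rpusd4 (355.6 in del(8-13)d11lac and 176.6 in del(8-13)rXII), Mrgprd (308.2 and 117.6), Hif1an (347.2 and 47.96), Epcam (359.8 and 44.45) and Gapt (302.0 and 58.76). The first pair had no motif within 50 bp of the del(8-13)d11lac summit.

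Near genes, a peak within 10 kb was found in both lists for 64.3% of 21938 protein-coding genes, in del(8-13)d11lac alone for 13.9%, in del(8-13)rXII alone for 0.356% and in neither for 21.5%. These are the background for the gene lists that follow, which were not tested. In the HoxA cluster 10 of 12 genes had a peak in both lists. For Hoxa10, a gene of the upper leg and reproductive tract, the strongest had 220.8 and 18.48. In HoxB 9 of 10 genes had both, and Hoxb1 had neither. In HoxC 7 of 9 had both, while Hoxc13 (7.082) and Hoxc12 (10.4) had weak peaks in del(8-13)d11lac alone. Counted once each, 8 of 11 del(8-13)d11lac peaks around HoxA, 8 of 9 around HoxB and 3 of 8 around HoxC were shared, and all del(8-13)rXII peaks there were. In the HoxD list, from Evx2 to Hoxd1, 5 of 10 genes had a peak in both lists. Both alleles remove Hoxd8 to Hoxd13 by name, so the calls at these genes are not like those at the other clusters. Hoxd13 and Hoxd8 counted through peaks outside the run, within 10 kb of the gene. Hoxd12 and Hoxd11 had the del(8-13)d11lac peak before Hoxd11 alone, and Hoxd10, Hoxd9 and Hoxd1 had none in either. Hoxd1 had none in wild-type whole limbs. Of 8 genes in the landscapes beside HoxD, 3 had both, and Lnpk (6.318), Hnrnpa3 (13.41), Atp5g3 (10.09) and Nfe2l2 (11.07) had del(8-13)d11lac alone.

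Of the genes that set forelimb or hindlimb identity, 4 of 6 had a peak in both lists. Pitx1, the hindlimb gene, had 114.2 and 9.45. Tbx5, the forelimb T-box gene (44.33), and Tbx4, its hindlimb counterpart (10.44), had peaks in del(8-13)d11lac alone. Both limb types went into the del(8-13)d11lac library and forelimbs alone into the other. Limb type and allele therefore cannot be told apart in these calls.

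Of 16 distal limb patterning genes 13 had both, among them Shh, the signal of the posterior limb margin (264.5 and 28.42), and Dlx5 (167.6 and 13.22). Grem1, a BMP antagonist, had a weak peak in each list (7.144 and 1.931), which did not overlap. Dlx6 (36.73), Sall1 (27.56) and Bmp4 (12.03) had peaks in del(8-13)d11lac alone. Of 11 proximal genes 10 had both, such as Meis1, which marks the upper limb (141.7 and 12.56), and Shox2 had neither. The muscle list had 6 of 10 with both, and Pax3 (18.64), Met (13.83) and Myf6 (3.732) were among those with del(8-13)d11lac alone. In the hedgehog list 7 of 9 had both, with Hhip (15.3) and Cdon (18.57) in del(8-13)d11lac alone, and in the ridge list 8 of 10, with Fgf9 (17.99) in del(8-13)d11lac alone. The cartilage list had 10 of 11 with both and Pthlh (7.079) in del(8-13)d11lac alone, and the housekeeping list 11 of 12, with Pgk1 (38.89). The blood, endothelium and surface ectoderm lists each had 5 of 7 with both, and Grhl3, an epidermal transcription factor gene, had 30.59 in del(8-13)d11lac alone. Among 20 imprinted genes 15 had both, and Zim1 (65.43), Dlk1 (30.67) and Snrpn (22.23) had del(8-13)d11lac alone. Of 14 genes for cohesin and CTCF machinery 9 had both. Rad21 (6.066), Smc1a (6.902), Wapl (11.14) and Mau2 (8.892) had weak peaks in del(8-13)d11lac alone. Kdr, an endothelial VEGF receptor gene, was the one member of the 18 lists with a peak in del(8-13)rXII alone (3.187).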

How the data were processed

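The deposited narrowPeak lists, 1 per library, were used for CTCF in both alleles and, as references, for the wild-type and d9lac CTCF and the RAD21 libraries. Per the submitters' processing notes the tools were cutadapt, Bowtie2 and MACS2 on build mm10, without versions; read depth is unknown. The score is 10 times the −log10 q as deposited and was not used. The authors' −log10 q ranks peaks within a list, and their fold enrichment, a ratio to local background, was used as given. The authors' −log10 p was not used. The weakest peaks of every list stand at a q of about 0.05.

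Rows of 1 region were merged and chromosomes 1 to 19, X and Y kept. Overlap needed 1 bp. Genes came from GENCODE M21 (basic, protein-coding), and sequences from GRCm38.p6. A 19 bp motif matrix was refined on the 2000 strongest wild-type whole-limb summits, and its threshold was the score that 5% of windows 2 kb away passed (7.66 bits within 50 bp, 9.84 within 100 bp, and 12.2 at 1% within 50 bp). Soft-masked bases of the genome file were taken as repeats. Motif search and overlap were tested on simulated data. Python 3.11.15, pandas 2.3.3, NumPy 2.4.6, SciPy 1.17.1 and Matplotlib 3.10.9 were used.

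With 1 library per allele no test was run. The labels do not say how many embryos were pooled for del(8-13)d11lac. The alleles, lists and comparisons were chosen with earlier results of these data known. Named peaks are all those between Lnpk and Mtx2, the 5 strongest shared on each side within 1 Mb and 1-list peaks there above their list's median, the 10 strongest of each list alone outside chromosome 18, the 5 strongest shared, and up to 4 members per gene list, discordant ones first. Peaks with the string CCAGAAGAGGG, the third flanking peak of del(8-13)rXII alone and Kdr were singled out after their values were seen. Alternatives were a −log10 q of at least 10, 50% coverage, summits within 200 bp, equal lengths by −log10 q or fold, autosomes alone, unmerged rows, other flanks, TSS distances and wild-type references. The H3K27ac samples and p-values were not used here.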

Additional observations from a re-analysis of the deposited data

How the results depend on the processing

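At HoxD 8 of 9 sites had the same status under 50% coverage, summits within 200 bp, equal lengths by either measure and sites in all 3 wild-type lists, and 7 of 9 when peaks with a −log10 q below 10 were dropped, where the Evx2 site fell out of del(8-13)rXII. In each setting these counts include the 5 sites inside the named deletion. The genome-wide shares moved with the rule. The share of del(8-13)d11lac peaks with a del(8-13)rXII peak (53.31%) was 26.78% without peaks below 10, 36.05% with 50% coverage, 52.71% with summits within 200 bp, and 83.37% and 81.57% in lists of equal length by −log10 q and by fold. In the other direction (94.67%) it was 98.47%, 93.45%, 90.92%, 87.52% and 85.55% in that order, and 95.78% for rows as deposited. Within 1 Mb of the run the shared part (42.62%) was 21.43% without peaks below 10, 29.51% with 50% coverage, and 70.59% and 63.89% at equal length. Of del(8-13)rXII-only peaks the part within 1 kb of a TSS (7.117%) was 5.208% without peaks below 10, 8.686% with summits within 200 bp, 9.159% at equal length by fold and 14.81% within 5 kb. Their part with a wild-type CTCF peak (25.14%) was 74.48% without peaks below 10, 35.63% with 50% coverage, 53.19% with summits within 200 bp, 65.29% and 70.17% at equal length, and 6.545% for the whole-limb list alone. Each rule redraws which peaks count as unshared, and a −log10 q of 10 is above the median of del(8-13)rXII (7.069) and below that of del(8-13)d11lac (30.88). The other 15 values stayed inside the counting interval or, at HoxD, within 1.5 times the count. A missing peak shows no more than that none was called, at a depth that is unknown. No paired analysis was possible because each allele has 1 library.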
